A study of Mus musculus with 33 samples.

Results

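The genes described here are the cadherins and the non-clustered protocadherins of mouse frontal cortex. Members were chosen by name alone, as the genes whose symbol is Cdh or Pcdh followed by a number, with the endothelial cadherin Cdh5 left out. Of 21565 genes listed 33 matched, and 27 had a mean of at least 1 CPM (reads scaled to a common library total) over all libraries, 17 of them Cdh and 10 Pcdh. The 6 below that level were Cdh3, Cdh15, Cdh16, Cdh17, Cdh26 and Pcdh12. The members nearest to the limit were Cdh1 just inside, with a mean of 1.66 CPM, and Pcdh12 just outside, with 0.389 CPM.

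RNA was sequenced from the frontal cortex of 33 adult male mice on a C57BL/6J background. Wild-type (WT) mice were free to sleep (control sleep, CS, n = 6), kept awake over 6 hr (SD, n = 7) or kept awake for a shorter time than the SD mice and then left to sleep again over 2 hr (recovery sleep, RS, n = 7). Mef2cf/f mice, which carry loxP sites around an exon of the transcription factor gene Mef2c in both alleles (FLOX), were taken in CS (n = 4) and SD (n = 3). Mef2cCKO mice (CKO, n = 3 in each state) carry the same floxed alleles, as their FLOX controls do, together with a Camk2a-Cre transgene that is active after birth in forebrain excitatory neurons, so other cells of the cortex keep the gene and recombination in the tissue is partial. The study's methods also report germline recombination in some CKO mice. Recovery sleep was not sampled in FLOX or CKO.

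Cadherins are calcium-dependent adhesion proteins that span the membrane and bind like molecules on the neighbouring cell. Classical cadherins, of type I and type II, hold the actin cytoskeleton through catenins, whereas protocadherins have other cytoplasmic tails, by which the delta-1 and delta-2 groups are told apart. In the cortex, combinations of type II cadherins and delta-protocadherins mark layers, areas and neuron classes, and many of them sit at synapses, where they take part in the matching of partners and in the stability of the contact. RNA of bulk tissue does not tell fewer cells of a type from less RNA per cell.

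Several members lie in groups on the chromosomes. In GRCm38 the type II genes Cdh6 (chr15:13028701-13173675), Cdh9 (chr15:16728756-16857094), Cdh10 (chr15:18818947-19014236), Cdh12 (chr15:20449265-21589533) and Cdh18 (chr15:22549022-23474418) follow each other on chromosome 15. Cdh7, Cdh19 and Cdh20 share chromosome 1, Cdh1, Cdh8, Cdh11 and Cdh13 share chromosome 8, and Cdh24, Pcdh8, Pcdh9, Pcdh17 and Pcdh20 share chromosome 14. RefSeq promoter windows on GRCm38.p6 (250 bases before to 50 after the start) were matched for 20 of the 27 members. The 150 bases before the start are shown for a selection of the members called in WT whose stretch overlaps no annotated exon. Others that qualify, such as Cdh20 and Pcdh15, are not shown. Of those shown, Cdh10 and Pcdh20 were no longer called in the fit corrected for GC content and length, given below. Cdh6 (chr15:13173676-13173825, minus strand), Cdh8 (chr8:99416472-99416621, minus strand), Cdh10 (chr15:18820179-18820328, plus strand), Pcdh9 (chr14:93890680-93890829, minus strand) and Pcdh20 (chr14:88471397-88471546, minus strand) were lower after sleep deprivation in WT. Pcdh8 (chr14:79771313-79771462, minus strand), the activity-regulated protocadherin also called arcadlin, was higher. The stretch of Cdh10 lies in an intron of a longer transcript of that gene, and those of Cdh8 and Pcdh8 lie in introns of Gm15680 and Gm9748. Capitals mark a match to a MEF2 motif in Cdh10, to TGACG, a short form of the cAMP response element, on the minus strand of the printed stretch in Cdh8 and Pcdh9, and to TATAAA in Pcdh8.
Cdh6: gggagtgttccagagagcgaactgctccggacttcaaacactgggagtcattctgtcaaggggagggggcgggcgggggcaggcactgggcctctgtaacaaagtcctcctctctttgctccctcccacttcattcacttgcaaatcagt
Cdh8: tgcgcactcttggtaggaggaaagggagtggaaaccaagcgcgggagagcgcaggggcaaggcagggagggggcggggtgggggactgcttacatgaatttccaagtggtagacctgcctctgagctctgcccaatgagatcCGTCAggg
Cdh10: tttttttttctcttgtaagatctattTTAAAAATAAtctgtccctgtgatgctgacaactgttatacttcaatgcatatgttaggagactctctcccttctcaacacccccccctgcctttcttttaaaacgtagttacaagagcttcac
Pcdh9: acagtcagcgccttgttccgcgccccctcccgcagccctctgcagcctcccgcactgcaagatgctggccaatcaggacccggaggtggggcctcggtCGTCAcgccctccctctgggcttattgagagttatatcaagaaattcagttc
Pcdh20: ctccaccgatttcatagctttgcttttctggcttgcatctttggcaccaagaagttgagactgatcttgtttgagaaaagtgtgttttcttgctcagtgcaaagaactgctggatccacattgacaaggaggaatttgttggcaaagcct
Pcdh8: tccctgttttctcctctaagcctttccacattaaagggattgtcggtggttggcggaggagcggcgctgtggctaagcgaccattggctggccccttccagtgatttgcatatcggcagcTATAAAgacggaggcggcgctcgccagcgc

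The motifs were looked for on both strands of the whole windows. A MEF2 motif was found in 2 of the 20 member windows (Cdh10 and Pcdh20) and in 3.26% of 27025 windows of all genes. The TGACG short form, which also lies inside the full element TGACGTCA, was found in 3 (Cdh8, Pcdh9 and Pcdh10) against 21.0% of all windows. The full element was in 0 of 20 against 1.88%, and TATAAA in 2 (Pcdh8 and Pcdh15) against 14.2%. No member window held CACGTG (7.24% of all), TGANTCA (7.93%), a serum response CArG box (1.57%) or the EGR motif GCGTGGGCG (0.63%). These are matches of letters within the windows, and binding was not measured.

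Values below are CPM divided by a scaling factor per library, called rescaled CPM. Comparisons are limma fits of log2(rescaled CPM + 0.5) over all genes tested, and a gene is called where the Benjamini-Hochberg adjusted p is at most 0.05 and the log2 fold change is at least 0.3 in either direction. Libraries held 18935045 to 249046089 reads. The WT libraries differed in a trend with GC content. The Spearman correlation of each library's deviations from the mean of all libraries with the GC content of the transcript, a description across genes, went from -0.741 to -0.104 in WT CS, from 0.027 to 0.768 in WT SD and from -0.268 to 0.676 in WT RS. It went from -0.439 to 0.41 in the FLOX libraries and from -0.137 to 0.207 in the CKO libraries. Results are therefore also given from a fit corrected for GC content and transcript length. Of Mef2c itself, which loses a single exon, the rescaled CPM was 1145 ± 67 (SD, n = 4) in FLOX CS and 1429 ± 414 (SD, n = 3) in CKO CS (log2 fold change 0.27 ± 0.20 SE, limma adjusted p = 0.382), so the level of the whole gene does not check the genotype labels.

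Levels per kb of transcript spanned more than 3 orders of magnitude in WT CS. Pcdh9, a delta-1 protocadherin, stood first with 908 ± 270 rescaled CPM per kb (SD, n = 6). It was followed by the type II cadherin Cdh18 (240 ± 51) and the delta-1 gene Pcdh7 (146 ± 32.6). Cdh10 (107 ± 26.3) and Cdh12 (103 ± 23.4) came next and differed by less than their SD. Cdh2, which encodes N-cadherin, was at 74.8 ± 9.22, followed by Pcdh15 (70.8 ± 16), Cdh11 (66.4 ± 11.8) and Cdh8 (64.0 ± 19.7), and neighbours among these 4 differed by less than 1 SD. Cdh13 (43.1), Pcdh10 (42.7) and Cdh9 (42.2) differed by less than their SD as well. Cdh20, Pcdh1, Cdh7, Pcdh17, Cdh6, Cdh4, Pcdh20, Cdh19, Cdh22 and Pcdh19 followed, from 35.5 for Cdh20 down to 5.63 for Pcdh19. At the lower end were Pcdh8 (1.60 ± 0.613), Pcdh18 (1.56 ± 0.187), Cdh24 (1.40 ± 0.235), Cdh1 (0.194 ± 0.188) and Cdh23 (0.162 ± 0.0580). Pcdh9 made up 37.0% to 52.1% of the members' summed rescaled CPM in each library. That sum was 9522 to 17832 in WT CS, 6011 to 8081 in WT SD, 5768 to 12929 in WT RS, 5768 to 7888 in FLOX and 4850 to 6191 in CKO.

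**Figure D1:**
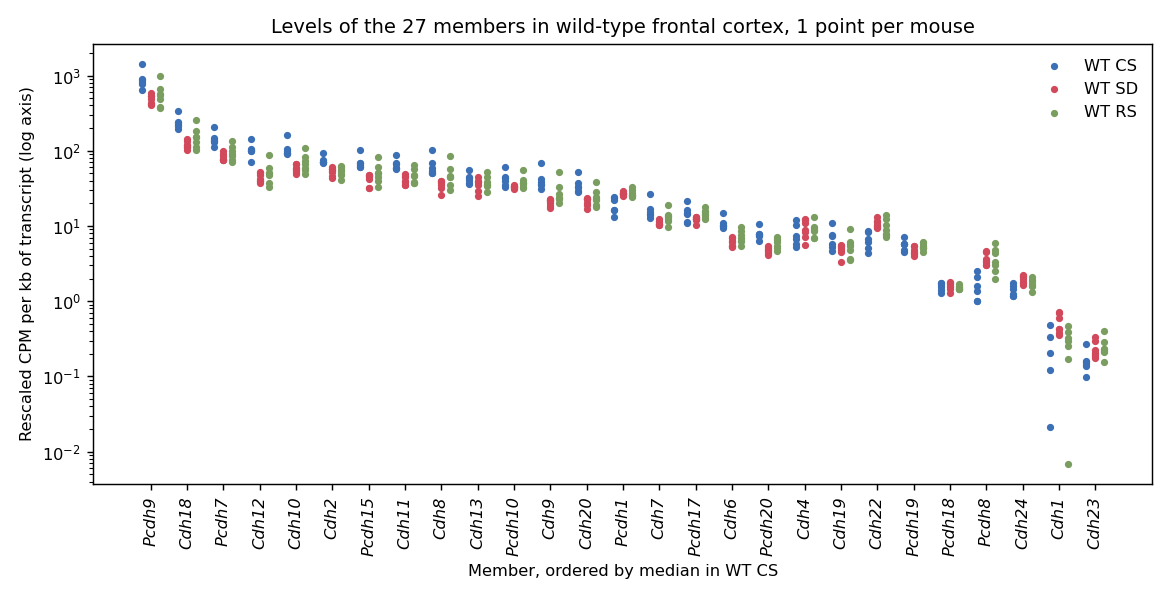
Rescaled CPM per kb of transcript (log axis) of the 27 members in WT mice, 1 point per mouse, ordered by the median in CS. Pcdh9 was highest in every WT group and Cdh1 and Cdh23 were lowest. A Cdh1 value of 0 in 1 CS mouse is not drawn.

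Sleep deprivation was compared with control sleep in WT mice to ask which members follow the loss of sleep. After 6 hr of SD 16 of the 27 members were lower and 6 were higher. By edgeR and by DESeq2 16 were lower and 4 higher, and neither called Cdh1 or Cdh23. Calls over all genes by these tools are not given here. Of the type II cadherins 10 of 12 were lower (median log2 fold change -0.77), among them Cdh12, Cdh18, Cdh9, Cdh10 and Cdh6 of chromosome 15. Of the delta-1 genes 2 of 3 were lower (median -0.80), and so were Pcdh15 and Pcdh20 (median -0.72). No test compared the subfamilies. The delta-1 protocadherins Pcdh9 and Pcdh7 were lower as well, and Pcdh8, Cdh1, Cdh22, Pcdh1, Cdh23 and Cdh24 were higher. Of all 12913 genes tested 24.6% were called higher and 20.5% lower. The members' median log2 fold change was -0.49 and that of all genes tested 0.04. With CPM as deposited the median of all genes moved to 0.30 and the share of called genes that were higher from 54.6% to 88.4%, while the members stood at 6 higher and 12 lower. WT CS replicate 2 was the highest CS mouse for most members that fell, and without it 14 members were lower and 5 higher. Calls over all genes in that fit are not given here.

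Cdh12, an N-cadherin-like type II cadherin of the brain, changed most among the members that fell. Its rescaled CPM ranged from 425 through a median of 605 to 864 in WT CS and from 224 through 252 to 312 in WT SD. The groups did not overlap, and the log2 fold change was -1.21 ± 0.14 (SE, limma adjusted p = 0.000242). Cdh18, its neighbour on the chromosome, was at 530 to 928 (median 627) in CS and at 278 to 392 (median 329) in SD, again without overlap (-0.98 ± 0.12, adjusted p = 0.000328). Cdh9, which is known from the synapses of hippocampal mossy fibers, was at 111 to 246 (median 132) against 60.6 to 81.4 (median 76.4), a log2 fold change of -0.98 ± 0.15 (adjusted p = 0.000679). All 7 SD mice were below all 6 CS mice for these 3 genes.

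Cdh10 and Cdh6 showed the same order. Cdh10 was at 344 to 601 (median 365) in CS and 184 to 252 (median 213) in SD (-0.86 ± 0.13, adjusted p = 0.000583). Cdh6, or K-cadherin, was at 77.1 to 121 (median 82.8) in CS and 42.6 to 58.8 (median 50.7) in SD (-0.82 ± 0.11, adjusted p = 0.000441). Of the other type II genes, Cdh8 (-0.81 ± 0.16), Cdh20 (-0.72 ± 0.13), Cdh11 (-0.68 ± 0.12), Cdh7 (-0.54 ± 0.14) and Cdh19 (-0.45 ± 0.18), a cadherin of glial lineages, also fell. The CS and SD libraries did not overlap for Cdh8, Cdh20, Cdh11 and Cdh7 and overlapped for Cdh19. The type I gene Cdh2, the N-cadherin of synaptic junctions, fell less, by 0.49 on the log2 scale (SE 0.10), from 332 to 451 in CS to 213 to 294 in SD.

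Among the delta-1 protocadherins, Pcdh9 fell from 4192 to 9298 (median 5522) in CS to 2676 to 3818 (median 3160) in SD. The groups did not overlap (-0.87 ± 0.16, limma adjusted p = 0.00164), although quantile normalization, which levels the most abundant genes of each library, gave 0.04. Pcdh7 fell by 0.80 (SE 0.13), from 992 to 1829 to 655 to 870. Pcdh15, known as a tip link protein of hair cells and in the brain from oligodendrocyte precursors, fell by 0.75 (SE 0.14), from 546 to 933 to 292 to 433. Of 10 oligodendrocyte precursor markers 6 were higher and 1 lower in this comparison (median 0.41), and their summed rescaled CPM was 230 to 309 in CS and 256 to 312 in SD. Pcdh20 (-0.69 ± 0.11) and the delta-2 gene Pcdh10 (-0.34 ± 0.12), which acts in the elimination of synapses, were also lower.

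Fewer members were higher after SD. Pcdh8, which is induced by neuronal activity and takes N-cadherin from the synaptic membrane, was at 4.56 to 11.5 (median 6.67) in CS and at 13.7 to 21.4 (median 15.6) in SD. The groups did not overlap, with a log2 fold change of 1.20 ± 0.20 (limma adjusted p = 0.000866). Cdh22, a type II cadherin of the brain, rose by 0.75 ± 0.15, from 16.2 to 31.6 in CS to 34.7 to 49.1 in SD, without overlap. The delta-1 gene Pcdh1 rose by 0.52 ± 0.13, from 70.7 to 134 to 135 to 159, also without overlap. Cdh24 (0.44 ± 0.11) and Cdh23 (0.44 ± 0.17), the partner of Pcdh15 in the tip link, rose with overlap of the groups.

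Cdh1, the E-cadherin of epithelia, was at 0 to 2.14 (median 0.716) in CS and at 1.59 to 3.22 (median 1.92) in SD, and the groups overlapped (1.25 ± 0.34, limma adjusted p = 0.00969). In 1 CS library no read of it was counted, which allows up to 0.0740 rescaled CPM. Cdh1 and Cdh23 passed the filter on low values through the SD group alone, and edgeR and DESeq2 called neither. Of 10 meningeal fibroblast markers tested 6 were higher and none lower in the same comparison (median log2 fold change 1.45). The summed rescaled CPM of the 12 listed was 15.8 to 78.2 in CS and 83.3 to 133 in SD, without overlap. The part of these markers in the Cdh1 value was not tested.

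Cdh4 (R-cadherin, 0.25 ± 0.21), Cdh13 (T-cadherin, which has a lipid anchor in place of a cytoplasmic tail, -0.27 ± 0.14), Pcdh17 (-0.23 ± 0.13), Pcdh18 (0.01 ± 0.10) and Pcdh19 (-0.26 ± 0.11), the gene of an X-linked epilepsy, were not called. In all, 14 members were lower and 3 higher without overlap of the CS and SD libraries, against 10.4% and 4.68% of all genes tested.

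**Figure D2:**
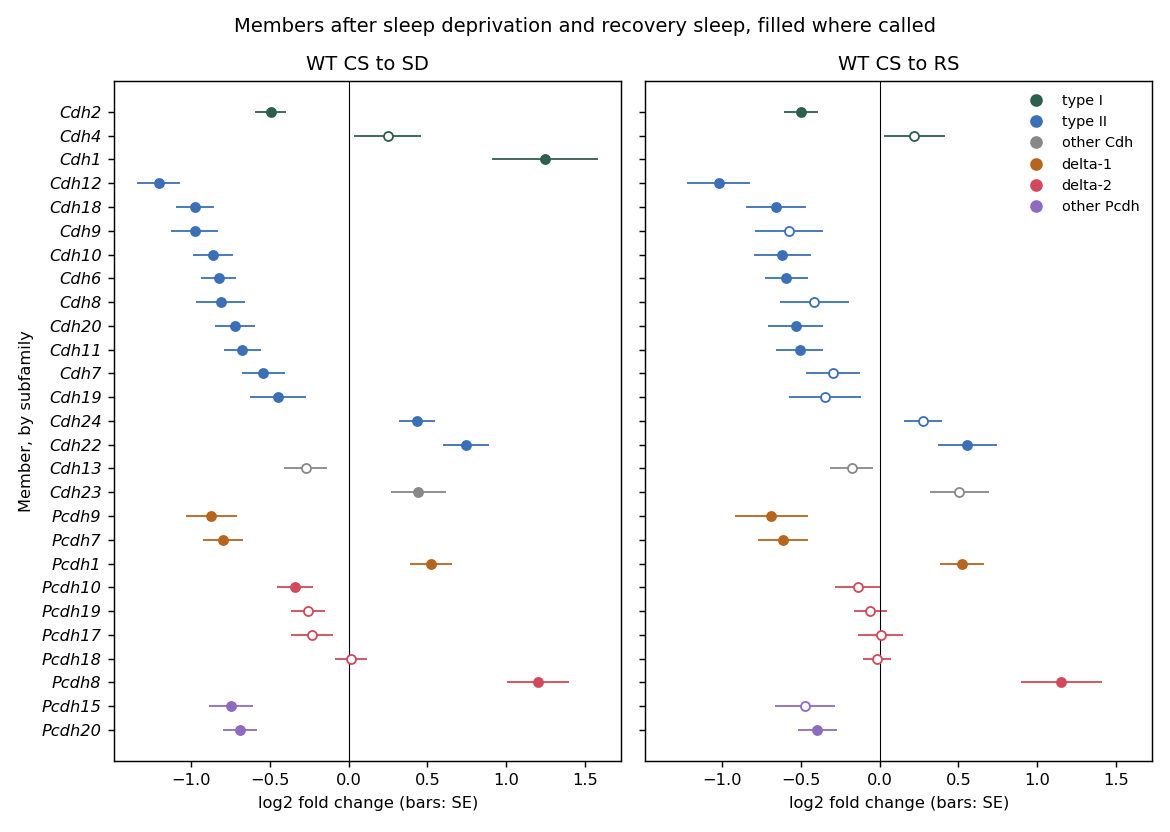
Log2 fold changes (x axis, bars are SE) of the members in WT mice after SD (left) and RS (right) against CS, grouped by subfamily and filled where called. Of the type II cadherins 10 were lower after SD and 6 after RS, and Cdh22 and Pcdh8 were higher in both. Cdh1 was not tested in RS.

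The members that fell and those that rose differ in base composition and gene size. The transcripts of the 16 that were lower had a median GC content of 42.5% (range 33.8% to 49.9%) and those of the 6 that were higher 60.0% (50.7% to 62.7%), against 49.7% over all genes tested. Median gene spans were 208 kb and 46.5 kb, against 28.3 kb over all. The 6 higher members include Cdh1, which sets the 50.7% bound, and Cdh23. Both passed the filter on low values through the SD group alone, and edgeR and DESeq2 called neither. Across genes, the log2 fold change had a Spearman correlation with GC content of 0.73 in the 27 members and 0.721 in all genes tested. With gene span it was -0.559 in the members and -0.556 in all genes. These genes share their libraries and are not independent replicates. The correction below uses GC content and transcript length but not gene span, and the part of gene span was not tested.

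With the fit corrected for GC content and length, 11 members were lower and 2 higher, against 8.04% and 13.7% of all genes. All 13 were also called without the correction. The lower members were Cdh18 (-0.85 ± 0.09), Cdh20 (-0.71), Cdh12 (-0.66), Cdh9 (-0.59), Pcdh7 (-0.46), Pcdh9 (-0.46), Cdh8 (-0.45), Cdh2 (-0.43), Cdh11 (-0.37), Pcdh15 (-0.37) and Cdh6 (-0.36). The higher ones were Pcdh8 (0.76 ± 0.14) and Cdh1 (1.24 ± 0.33), the latter with the limits given above. Cdh22 was then at 0.14 ± 0.09, Pcdh1 at 0.06 ± 0.10 and Cdh23 at 0.25 ± 0.13, and Cdh24 (-0.12), Cdh19 (0.06) and Pcdh10 (0.08) changed sign. Cdh10 (-0.24), Pcdh20 (-0.29) and Cdh7 (-0.16) kept their sign but were no longer called, the first 2 because their change was then smaller than 0.3. Without the 3 WT CS libraries of steepest GC trend (replicates 1, 2 and 3), an alternative chosen after the data were seen, 14 members were lower and 3 higher. Calls over all genes in that alternative are not given here. The part of the GC trend in the uncorrected values was not tested beyond these fits.

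**Figure D3:**
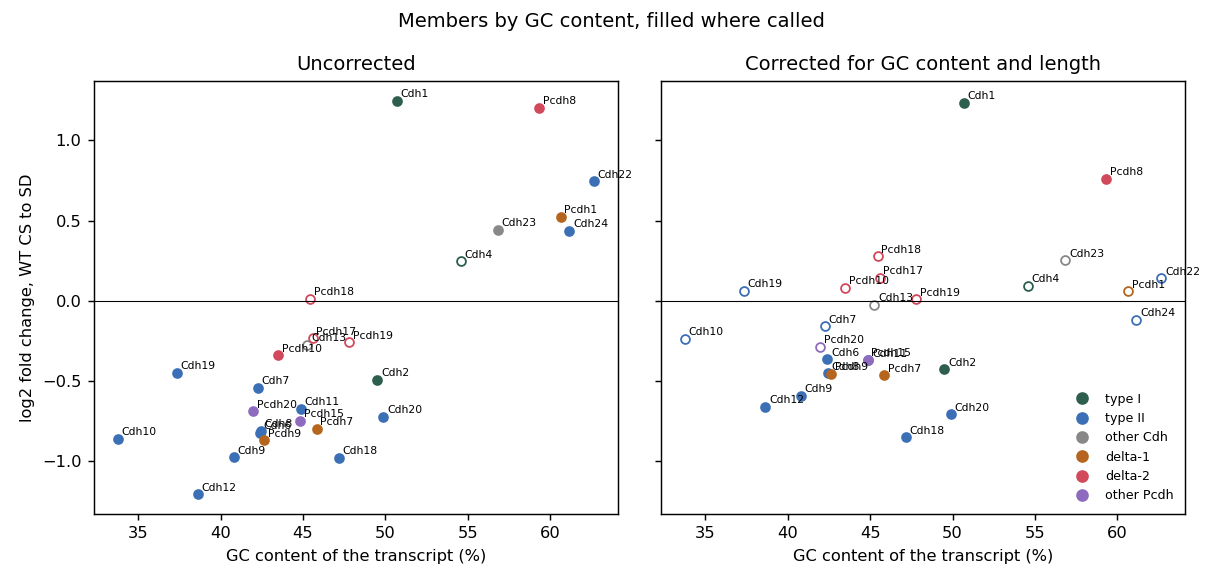
Log2 fold change from CS to SD in WT (y axis) of each member against the GC content of its transcript in percent (x axis), uncorrected and corrected for GC content and length, filled where called. Uncorrected, the 6 higher members lay at a GC content of 50.7% or more. Among them Cdh1 and Cdh23 passed the filter on low values through the SD group alone. After correction Cdh18, Cdh20 and Cdh12 were the lowest, and Cdh1 and Pcdh8 the highest.

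Partner genes of the cadherins were called in both directions, in shares that were not set apart by a test from the 24.6% higher and 20.5% lower of all genes tested. Of 21 catenins and junction partners 5 were called higher and 8 lower, with a median log2 fold change of -0.22. The nectin genes Pvrl3 (-1.0 ± 0.15) and Nectin1 (0.71 ± 0.11) went opposite ways, and so did the alpha-catenins Ctnna3 (-0.84 ± 0.14) and Ctnna2 (-0.72 ± 0.11) against plakoglobin (Jup, 0.60 ± 0.13) and the delta-catenin relative Arvcf (0.64 ± 0.20). Magi2, a scaffold of synapses and junctions, fell by 0.81 (SE 0.12), and the nectin gene Pvrl2 rose by 0.43 ± 0.12. Of 17 other genes of the cadherin superfamily 5 were higher and 3 lower (median 0.25). Dchs1 (0.84 ± 0.22), its modulator Fjx1 (0.84 ± 0.25), Celsr1 (0.64 ± 0.16) and the calsyntenin Clstn3 (0.45 ± 0.18) rose, while the delta-1 protocadherin Pcdh11x (-0.83 ± 0.18), Fat3 (-0.61 ± 0.09) and Clstn2 (-0.59 ± 0.15) fell.

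Recovery sleep was compared with CS and with SD to ask which differences were still present after 2 hr of sleep. The RS mice had also been kept awake for a shorter time than the SD mice, and the sleep and the shorter deprivation cannot be told apart. From CS to RS 10 of 26 members tested were lower and 3 higher, against 8.22% and 9.28% of all genes tested. The lower members were Cdh12, Pcdh9, Cdh18, Cdh10, Pcdh7, Cdh6, Cdh20, Cdh11, Cdh2 and Pcdh20, and the higher ones Pcdh8, Cdh22 and Pcdh1. The members' median log2 fold change was -0.37, and that of all genes tested 0.02. With CPM as deposited 4 members were higher and 8 lower, and 88.2% of all called genes were higher instead of 53.0%. Each of the 13 had been called with the same sign from CS to SD, a comparison that shares the CS libraries.

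The RS mice spread widely. Cdh12 was at 197 to 520 (median 301) in RS, overlapping CS, with a log2 fold change of -1.02 ± 0.20 (limma adjusted p = 0.0329). Pcdh8 was at 9.06 to 26.5 (median 15), also overlapping CS (1.15 ± 0.26, adjusted p = 0.0329). Cdh2 was the exception, at 198 to 307 in RS against 332 to 451 in CS without overlap (-0.50 ± 0.11, adjusted p = 0.0329). Pcdh9 ranged from 2406 to 6512 (median 3561), Cdh18 from 280 to 696 (median 420), Cdh10 from 182 to 415 (median 248) and Pcdh7 from 625 to 1168 (median 794), and their RS mice reached into the CS range. Cdh6 ranged from 44.2 to 78.9 and Cdh22 from 26.8 to 51.9 in RS.

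The calls were lost when single libraries were left out. With WT CS replicate 3 or WT RS replicate 3, 4, 5, 6 or 12 left out no member was called, and with WT CS replicate 1 or 2 left out 1 was. Calls over all genes fell with them, from 2232 to 0 without WT CS replicate 3 or WT RS replicate 3, 5, 6 or 12, to 3 without WT RS replicate 4 and to 223 and 98 without WT CS replicate 1 and 2. In these fits 15 to 17 members still had an unadjusted p of at most 0.05, against 17 with all libraries. With all libraries 5913 of 12752 genes tested reached that p as well. With the GC and length correction Cdh12 (-0.60 ± 0.11), Cdh2 (-0.43 ± 0.09) and Pcdh8 (0.78 ± 0.19) were called, against 1.99% of all genes lower and 2.26% higher.

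Between SD and RS no member was called by limma, edgeR or DESeq2, and 0.0155% of all genes were higher and 0.00774% lower in RS. An unadjusted limma p under 0.05 was reached by 7 of 27 members and by 683 of 12921 genes tested. Of the 7 members, Cdh8 (0.40 ± 0.18), Cdh9 (0.40 ± 0.16), Pcdh20 (0.29 ± 0.10), Cdh7 (0.24 ± 0.11), Pcdh17 (0.24 ± 0.08) and Pcdh19 (0.20 ± 0.08) had higher values in RS. Cdh1 (-0.81 ± 0.28) had lower ones.

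In FLOX mice the question was whether the same change follows SD in a floxed line without Cre. No member was called by limma or edgeR. An unadjusted limma p under 0.05 was found for 4 of 27 members and for 2111 of 12410 genes tested. DESeq2 called Pcdh20 lower (-0.30, adjusted p = 0.0339). Of all genes tested 0.0242% were higher and 0.0161% lower. Cdh12 was at 178, 228, 229 and 230 in the 4 FLOX CS mice and at 207, 242 and 274 in the 3 FLOX SD mice (log2 fold change 0.16 ± 0.12). Pcdh9 was at 2416, 2628, 3208 and 3237 in CS and at 2761, 3159 and 3728 in SD (0.16 ± 0.15). Pcdh8 was at 6.48, 8.71, 8.98 and 10.3 in CS and at 7.39, 8.54 and 9.31 in SD (-0.02 ± 0.15).

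The FLOX and WT responses differed for 14 members by the interaction test over all genes, which was called on the adjusted p alone, 12 with a response that was higher in FLOX and 2 lower, against 9.35% and 5.78% of all genes tested. The largest differences were those of Cdh12 (1.36 ± 0.22 on the log2 scale, limma adjusted p = 0.00724) and Pcdh8 (-1.22 ± 0.30, adjusted p = 0.0233). Cdh9 (1.08 ± 0.24), Pcdh9 (1.04 ± 0.25), Cdh10 (0.94 ± 0.23), Pcdh7 (0.92 ± 0.20), Cdh18 (0.92 ± 0.23) and Cdh7 (0.90 ± 0.22) followed. Cdh8, Cdh19, Cdh6, Cdh11 and Cdh2 were the other members with a higher response, and Cdh22 (-0.82 ± 0.25) the other with a lower one. Of these 14, Cdh12, Cdh9, Pcdh9, Cdh10, Pcdh7, Cdh18, Cdh7, Cdh8, Cdh6 and Cdh2 had FLOX CS values below the whole range of WT CS. Those of Cdh11, Cdh19, Cdh22 and Pcdh8 overlapped it. Pcdh20, which was not among the 14, also lay below it in FLOX CS (26.2 to 28.8 against 32.8 to 55.4). The interaction test uses the same CS libraries, and the share of all genes was not computed. The difference between FLOX CS and WT CS was not tested. The mean of Cdh12 was 620 in WT CS, 265 in WT SD and 216 in FLOX CS. For Pcdh9 these means were 5922, 3163 and 2872. The labels name no cohort. Genotype cannot be told apart here from other differences between the WT and FLOX libraries. The listed CPM summed to 938651 to 985958 in the WT CS and SD libraries and to 1000000 in each FLOX library. Median reads were 87721358 in WT CS and 115615605 in WT SD, against 35551861 in FLOX CS and 47999305 in FLOX SD. With CPM as deposited 10 members were higher and 3 lower, and the share of all called genes that were higher went from 61.8% to 14.8%. Without FLOX CS replicate 2 or 4 the count of 14 fell to 4 and 3, and without FLOX SD replicate 1 or 3 to 3 and 1. Calls over all genes in these fits are not given here, so the fall was not set apart from a general one. With the GC and length correction 5 members remained, namely Cdh12, Cdh7, Cdh9, Pcdh7 and Pcdh9, all with a higher response, against 0.871% and 0.752% of all genes.

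**Figure D4:**
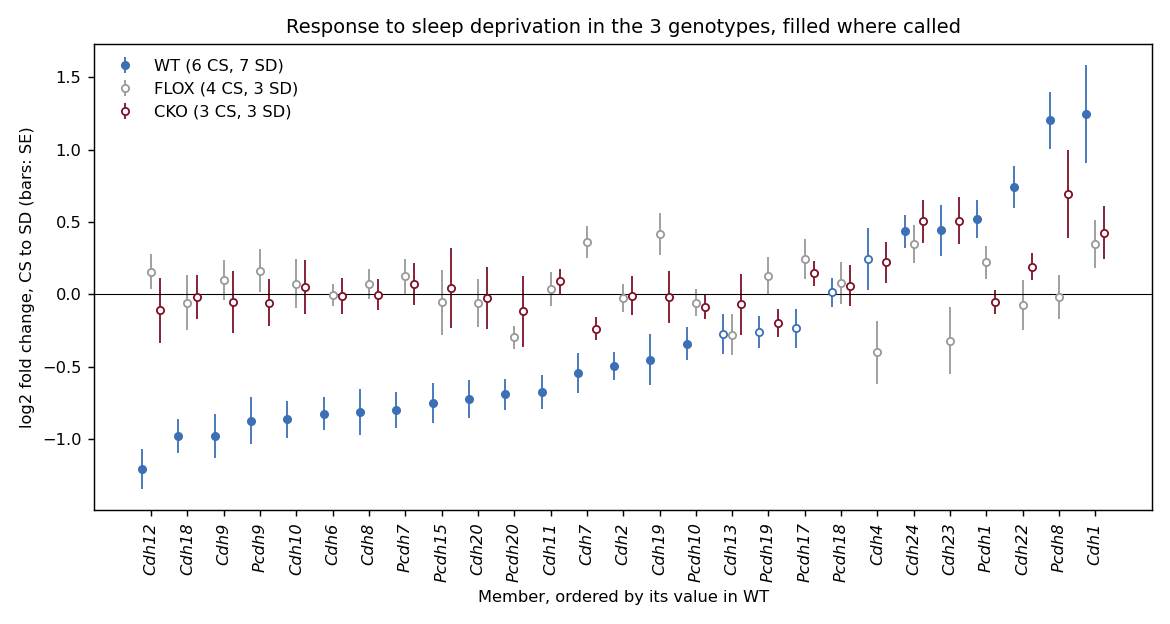
Log2 fold change from CS to SD (y axis, bars are SE) of each member in WT, FLOX and CKO mice, ordered by the value in WT and filled where called. In WT 22 members were called, and in FLOX and CKO none was.

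In CKO mice no member was called from CS to SD by limma, edgeR or DESeq2. An unadjusted limma p under 0.05 was found for 3 of 27 members and for 391 of 12810 genes tested. Of all genes 0.0234% were called higher and 0.0% lower. Cdh12 was at 125, 173 and 202 in CKO CS and at 116, 159 and 189 in CKO SD (-0.11 ± 0.23). Pcdh8 was at 8.72, 10.3 and 10.5 in CS and at 11.9, 12.7 and 27.7 in SD, so 1 SD mouse stood above the other two (0.70 ± 0.30). Cdh24 (0.51 ± 0.15) and Cdh23 (0.51 ± 0.16) had higher values in SD than in CS and Cdh7 (-0.24 ± 0.08) lower ones. The SD response of CKO did not differ from that of FLOX for any member past the threshold in limma, edgeR or DESeq2. At an unadjusted limma p under 0.05 were 2 members (Cdh7, -0.60 ± 0.15, and Cdh23, 0.83 ± 0.31) and 1005 of 12860 genes tested. Of all genes 0.00778% had a higher and 0.0% a lower response.

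CKO was compared with FLOX in each sleep state to find members that differ where Mef2c is deleted in excitatory neurons. Cdh6 was lower in CKO in both states. In CS it was at 43.3, 45.5, 45.7 and 48.4 in FLOX and at 23.2, 25.2 and 28.9 in CKO (log2 fold change -0.82 ± 0.10, limma adjusted p = 0.0038). In SD it was at 43.1, 46.3 and 47.5 in FLOX and at 22, 27 and 27.6 in CKO (-0.83 ± 0.10, adjusted p = 0.00164). All CKO mice were below all FLOX mice. In CS 4 members were lower and 2 higher without overlap of the mice. The share of all genes was not computed, so these counts say nothing about the members as a set. In CS Cdh6 was the only member called, against 4.5% of all genes lower and 3.17% higher. With CPM as deposited Pcdh17 was also called (0.55), and 71.8% of all called genes were higher instead of 41.3%. DESeq2 also called Cdh11 (-0.44), Cdh18 (-0.51), Cdh9 (0.55) and Pcdh17 (0.41) in CS. With the GC and length correction Cdh6 (-0.75 ± 0.10) was lower and Pcdh17 (0.57 ± 0.10) and Pcdh18 (0.48 ± 0.11) were higher, against 5.03% and 4.32% of all genes.

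In SD 7 members were lower in CKO than in FLOX and 2 higher, against 5.99% and 9.1% of all genes. With CPM as deposited 4 were lower and 5 higher, and with quantile normalization 3 were lower and 3 higher, while the share of all called genes that were higher went from 60.3% to 77.5% and to 48.8%. Cdh23 was at 1.16, 1.38 and 1.57 in FLOX and at 3.83, 4.37 and 4.59 in CKO (1.35 ± 0.14, limma adjusted p = 0.00101). Cdh4 was at 27.5, 31.4 and 31.5 in FLOX and at 42.5, 49.1 and 54.4 in CKO (0.68 ± 0.10, adjusted p = 0.00476). For both the CKO mice were above all FLOX mice.

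With the GC and length correction 3 members were lower in CKO SD and 4 higher, against 5.26% and 8.09% of all genes. The lower members were Cdh6 (-0.71 ± 0.10), Cdh7 (-0.37 ± 0.07) and Cdh19 (-0.35 ± 0.09). The higher members were Cdh23 (1.38 ± 0.13), Cdh4 (0.69 ± 0.09), Cdh9 (0.45 ± 0.12) and Pcdh17 (0.45 ± 0.10), of which the last 2 were not called without the correction. Cdh12 (-0.53 ± 0.16, limma adjusted p = 0.0567), Pcdh9 (-0.42 ± 0.13, adjusted p = 0.0685), Cdh8 (-0.29 ± 0.06) and Cdh11 (-0.27 ± 0.07) were no longer called.

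Among the members that were lower without the correction, Cdh12, at 207, 242 and 274 in FLOX against 116, 159 and 189 in CKO, had a log2 fold change of -0.66 ± 0.17 (limma adjusted p = 0.0347). Pcdh9 was at 2761, 3159 and 3728 against 1876, 2361 and 2463 (-0.53 ± 0.15, adjusted p = 0.0429). Cdh7 was at 58.3, 59.9 and 64.7 against 41.3, 43.3 and 48.2 (-0.46 ± 0.08, adjusted p = 0.00761). No CKO value of these 3 genes reached the FLOX range. In SD 9 members were lower and 5 higher without overlap of the mice, and some of them, such as Pcdh7 and Cdh2, were not called. The share of all genes without overlap was not computed, so these counts say nothing about the members as a set. Cdh19 (24.4, 24.6 and 28.6 against 16.6, 17.5 and 22.2), Cdh8 (162, 181 and 191 against 130, 131 and 149) and Cdh11 (-0.35 ± 0.08) were lower as well.

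The count of 9 fell to 4 without FLOX SD replicate 1 or 3 and to 5 without CKO SD replicate 7. Calls over all genes in these fits are not given here, so the fall was not set apart from a general one. Cdh4, Cdh6, Cdh7 and Cdh23 kept their calls in each of the 6 fits that left out a mouse, and the other 5 did not.

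**Figure D5:**
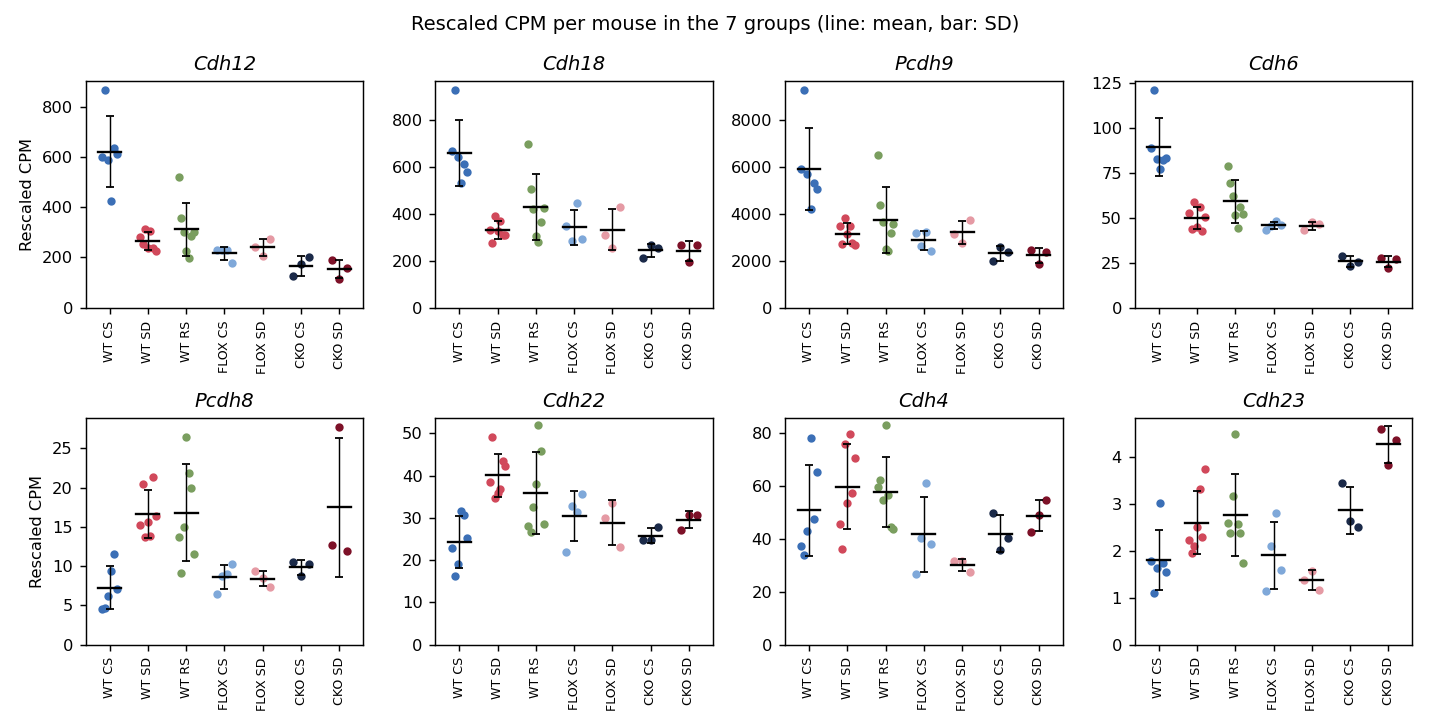
Rescaled CPM (y axis from 0) of 8 members in each mouse of the 7 groups, with the mean as a line and the SD as a bar. Cdh12, Cdh18 and Pcdh9 were high in WT CS and Cdh22 in WT SD. Pcdh8 had a mean of 16.7 in WT SD, 16.8 in WT RS and 17.5 in CKO SD. Cdh6 was lowest in CKO in both states, and Cdh23 was highest in CKO SD.

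Markers of other cells and of nearby regions moved in the same comparison. In SD the 7 listed olfactory bulb markers summed to 4.85 to 6.75 rescaled CPM in FLOX and to 41.2 to 86.8 in CKO, and 6 of the 6 tested were higher in CKO. Upper layer markers summed to 981 to 1049 in FLOX and 598 to 713 in CKO, and 7 of 10 were lower. Of 5 choroid plexus markers tested 4 were higher (sum of the 8 listed 6.16 to 9.76 against 10.8 to 26.3), and of 12 inhibitory neuron markers 5 were higher and 2 lower. Of 9 microglia and macrophage markers 6 were higher (sum 177 to 187 against 229.5 to 254), and of 12 excitatory neuron markers 5 were lower and none higher (3739 to 3928 against 2876 to 3211). Of 13 deep layer markers 4 were higher and 1 lower, and each of the other marker lists had 1 to 4 called members in SD. Of 19 catenins and junction partners tested 2 were higher and 4 lower in SD, and 3 were lower and none higher in CS. In CS the same 10 upper layer markers summed to 942 to 989 in FLOX and 728 to 741 in CKO, and 5 were lower, while 3 of 10 oligodendrocyte, 3 of 10 oligodendrocyte precursor and 3 of 11 meningeal fibroblast markers were higher and 2 of 12 excitatory neuron markers lower. Each of the other lists had at most 2 called members in CS. The median sum of the olfactory bulb markers in CS was 9.36 in FLOX and 40.5 in CKO. The groups overlapped, and none of the 6 tested was called. Microglia and macrophage markers summed to 162 to 195 in FLOX CS and to 197 to 557 in CKO CS, with none called. Choroid plexus markers summed to 5.30 to 14.4 in FLOX CS. In CKO CS their median sum was 9.42, and 1 mouse stood at 326. The part of all these markers in the values of Cdh6, Cdh4, Cdh23 and the other members was not tested.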

How the data were processed

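Frontal cortex RNA of 33 mice was sequenced. The deposited values are CPM of 21565 genes, which the authors made with edgeR from HTSeq counts of uniquely mapped reads, after quality control (FASTQC), trimming (Trimmomatic) and STAR alignment to the build mm10. Dividing each library's CPM by its smallest value above 0 gave whole reads for 100% of 711645 values (tolerance 0.01). Totals were 18935045 to 249046089 reads, and limits from a count of 0 (3 reads) cover counting error only.

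Each library's CPM were rescaled by a median-of-ratios factor, taken over the 11570 genes that reached 1 CPM in every library. Log2 values (pseudocount 0.5, which understates changes of low genes) were fitted with limma 3.58.1 (lmFit, eBayes with a trend) in R 4.3.3 on the compared groups alone, for genes that reached 1 CPM in each replicate of a compared group. Calls needed a p of 0.05 or less after Benjamini-Hochberg adjustment and a log2 fold change of 0.3 or more in size, the latter not for interactions. The scripts were tested on simulated data. The fits were repeated with a pseudocount of 0.1 or 1, unscaled CPM, quantile normalization, other filters, a correction for GC content and length, edgeR 4.0.16 and DESeq2 1.42.0 on recovered reads, all 7 groups in 1 fit, a replicate block and each mouse left out. GC content, length and positions came from GENCODE M21 (GRCm38), in which 19470 symbols were matched, 240 of them through synonyms. No replicate pair agreed within sampling noise (chi-square per degree of freedom 13.6 to 700). P-values measure the spread between these mice.

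Every member was named, with values by library for at most 8 called members per comparison in order of fold change. Members, lists and alternatives were chosen with earlier results of these data known. The 16 lists were catenins and junction partners, other genes of the cadherin superfamily and markers of 14 cell classes. Of the marker lists not described beside a result, from CS to SD in WT the counts higher and lower were 1 and 3 of 12 for excitatory neurons, 0 and 3 of 10 for upper layers, 1 and 4 of 12 for deep layers, 2 and 2 of 12 for inhibitory neurons, 2 and 0 of 9 for striatal neurons, 1 and 0 of 3 for olfactory bulb, 4 and 0 of 10 for astrocytes, 2 and 4 of 10 for oligodendrocytes, 1 and 1 of 9 for microglia and macrophages, 2 and 2 of 10 for endothelium, 3 and 1 of 9 for pericytes and smooth muscle and 0 and 1 of 3 for choroid plexus.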

Additional observations from a re-analysis of the deposited data

Results flagged for a closer look

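WT CS replicate 2 lay far above the other 5 CS mice for 11 members, by Dixon's test at the 95% level. Its rescaled CPM was 601.3 for Cdh10 (others 344.5 to 395.4), 500.2 for Cdh11 (others 323.2 to 383.8), 927.9 for Cdh18 (others 530.3 to 666.1), 451 for Cdh2 (others 332.4 to 364), 120.9 for Cdh6 (others 77.11 to 88.68). It was also 133 for Cdh7 (62.43 to 82.71), 246.1 for Cdh9 (110.9 to 149.7), 933.1 for Pcdh15 (545.8 to 628.4), 55.43 for Pcdh20 (32.82 to 40.47), 1829 for Pcdh7 (991.9 to 1288), 9298 for Pcdh9 (4192 to 5929). The scaling factor of that library (0.718) and its GC correlation (-0.741) were the lowest of the 33. Their part in these values was not tested. Other mice that stood apart were FLOX CS replicate 4 with 177.8 for Cdh12 (others 227.8 to 229.9), FLOX CS replicate 3 with 125.5 for Cdh20 (others 76.06 to 83.64), WT CS replicate 4 with 3.014 for Cdh23 (others 1.098 to 1.783), WT RS replicate 1 with 182.5 for Cdh9 (others 71.4 to 115), WT RS replicate 1 with 453.1 for Pcdh10 (others 260 to 339.2), FLOX CS replicate 3 with 591.8 for Pcdh15 (others 303.4 to 343.4). In all 17 of 108 groups of values were so marked, where chance marks about 1 in 20, which is 5.4 here, and genes of a library are not independent.

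The response to sleep deprivation differed between FLOX and WT mice for 14 members by the limma interaction test (adjusted p from 0.00724 to 0.0467). The FLOX response minus the WT response on the log2 scale was 0.94 for Cdh10, 0.71 for Cdh11, 1.36 for Cdh12, 0.92 for Cdh18, 0.87 for Cdh19, 0.47 for Cdh2, -0.82 for Cdh22, 0.82 for Cdh6, 0.90 for Cdh7, 0.89 for Cdh8, 1.08 for Cdh9, 0.92 for Pcdh7, -1.22 for Pcdh8, 1.04 for Pcdh9. The interaction test did not mark a difference between CKO and FLOX for any member.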

How the results depend on the processing

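Of the called members 4 values changed sign under an alternative, and 19 of the 22 members called in WT from CS to SD stayed called in each of the 13 fits that left out a mouse. With the GC content and length correction the count of 22 went to 13 (2 higher, 11 lower), that of 13 from CS to RS to 3, that of 1 from FLOX to CKO in CS to 3, and that of 14 for the FLOX response minus the WT response to 5. Under that correction Cdh19 (0.062), Cdh24 (-0.117) and Pcdh10 (0.080) changed sign from CS to SD, and Pcdh9 did so by quantile normalization (0.036), which averages the highest ranks over libraries. From CS to RS the count was 8 by quantile normalization, 4 with no filter on low values and 0 without the 3 WT CS libraries of steepest GC trend, a setting chosen after the data were seen that gave 17 from CS to SD. From FLOX to CKO in CS the count was 2 by CPM as deposited, quantile normalization and the fit over all 7 groups, and 5 by DESeq2. In SD it was 2 (Cdh6 and Cdh23) by the fit over all 7 groups, and DESeq2 called 1 member in FLOX from CS to SD. The causes of these shifts were not tested.

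Leaving out each mouse in turn gave 19 to 23 members from CS to SD in WT, 0 to 17 from CS to RS, 1 to 2 from FLOX to CKO in CS, 4 to 13 in SD (13 without CKO SD replicate 6), 1 to 17 for the FLOX response minus the WT response and 0 in the other comparisons. In CS a second member was called without FLOX CS replicate 3 or CKO CS replicate 5. Calls over all genes are given for only some of these fits. The replicate numbers were not taken to pair the mice: correlations between same-numbered deviations were -0.329 to 0.554 from CS to SD in WT, 0.068 to 0.666 from CS to RS, where 5 of 6 were over 0.1, -0.726 to 0.333 from SD to RS, 0.047 to 0.265 in FLOX and 0.069 and 0.15 in CKO. Of the samples with a partner, 4 of 10, 4 of 12, 1 of 10, 2 of 6 and 4 of 4 correlated best with their own number in these comparisons. A replicate block, which uses the mice with shared numbers, gave 5 members from CS to SD in WT, 16 from CS to RS (4279 genes in all instead of 2232) and 0 for the FLOX response minus the WT response. Over all genes, 5825 were called from CS to SD in WT, 2710 with the GC and length correction and 287 with the replicate block. Cdh1 and Cdh23 had the lowest mean CPM of the members (1.66 and 2.51), and the part of depth in their values was not tested.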
